A study of Caenorhabditis elegans with 8 samples.

Results

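The shortest endo-cleaved DNA of C. elegans oocytes was taken from the paired-end library of the 20 to 80 nt size range, as every distinct fragment of 25 to 45 nt. The rule found 1084842 fragments among 5930844 distinct fragments of the library (18.3%), and none of them was 25 nt long, so the members ran between 26 and 45 nt. The comparison class was 2567847 fragments of 60 to 80 nt from the same library. The fragments came from purified, unfertilized oocytes of fer-1(b232) worms, a temperature-sensitive strain kept at its restrictive temperature of 25 to 26°C. Frozen oocytes were ground and lysed directly, without added nuclease. The same strain gave every other library used here, namely endo-cleaved DNA of 130 to 430 nt, of 40 to 130 nt (50 to 130 bp in the sample labels) and of 40 to 90 nt read from single ends, and nucleosome core DNA of about 150 bp made with micrococcal nuclease (MNase). Each condition had 1 library, so no value has an error between oocyte preparations and no test was made. Ranges in parentheses are the lowest and the highest of the 6 nuclear chromosomes, which show variation along the genome within 1 library.

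DNase II enzymes, such as NUC-1 of C. elegans, degrade the DNA of dying and engulfed cells, and the DNA measured here was cut by a nuclease of the oocytes themselves. DNA wound on a histone octamer turns once every 10 nt or so, and a nuclease that reaches only the outward-facing strand cuts at that repeat. Staggered cuts leave a short 3′ overhang, which the blunting step before linker ligation removes. MNase instead trims the linker and leaves the core, so its 5′ ends lie near the core's edges. The sizes, places and distances of the shortest fragments were therefore read against both edges and midpoints of core DNA.

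The members were chosen by their size, so the sizes are given as a description. Their number had a low maximum of 29138 fragments at 28 nt and a high maximum of 136198 fragments at 38 nt. The trough between them held 24225 fragments at 31 nt, and the trough above 38 nt held 45711 fragments at 42 nt. The 28-nt maximum was 1.20 times the number in its trough (1.16 to 1.26) and the 38-nt maximum 2.98 times (2.90 to 3.03). Both maxima fell on the same nt in each of the 6 chromosomes. Fragments of 37 to 39 nt made up 34.8% of the members and fragments of 27 to 29 nt made up 7.35%. The series went on outside the class with maxima at 48, 59, 69 and 79 nt, the first 3 of which were 4.53, 6.13 and 8.80 times the trough after each. Just inside the upper bound there were 73921 fragments of 45 nt, and just outside it 96487 fragments of 46 nt. The lower bound was 16111 fragments of 26 nt, 1 nt longer than each 25-nt read, and what the read length did to sizes near it was not tested.

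**Figure D1:**
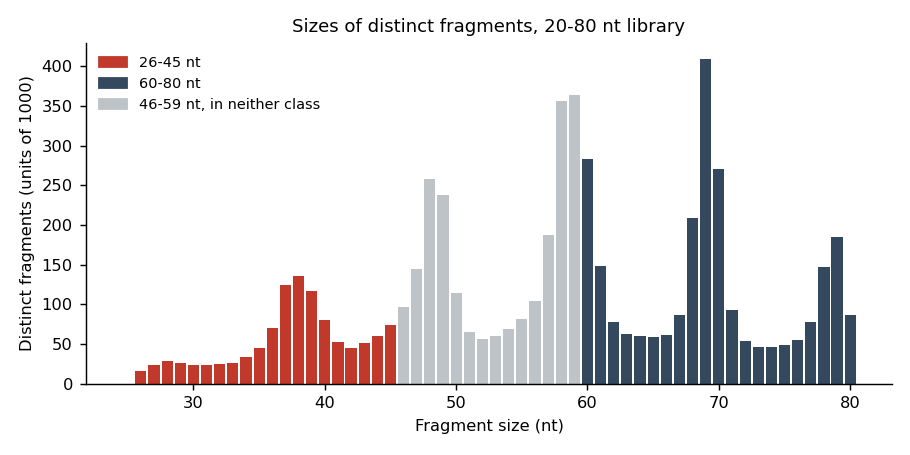
Number of distinct fragments (in units of 1000) at each size from 26 to 80 nt in the 20 to 80 nt library, with the members in red, fragments of 60 to 80 nt in dark blue and sizes in neither class in grey. The red bars have a low maximum of 29138 fragments at 28 nt and a high one of 136198 at 38 nt.

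Few members were seen more than once. Of the members 2.06% had over 1 tag (95% Wilson interval 2.03 to 2.08%), against 2.65% of the 60 to 80 nt fragments (2.63 to 2.67%). These intervals cover counting error only, since PCR copies are not independent molecules. The most tags on a single member were 86, against 35 in the longer class.

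The place of the members' ends was also read on the cutting lattice of another library. Both ends of each fragment were pooled, so fragment size enters this measure. Both ends of a fragment can lie on a regular lattice only at sizes spaced by its repeat. For each fragment, the 5′ ends of the 40 to 90 nt single-end library were counted on the same strand within 1 nt of whole helical turns (10, 21 and 31 nt away) and of positions between turns (5, 16 and 26 nt away). Over all members the ratio of the first to the second was 1.37 (1.31 to 1.41), against 1.65 (1.56 to 1.71) for 60 to 80 nt fragments. Within the members the ratio moved with size. Fragments of 27 to 29 nt gave 1.45 (1.37 to 1.52) and fragments of 37 to 39 nt gave 1.66 (1.56 to 1.72). At the 69-nt size maximum, fragments of 68 to 70 nt gave 1.90 (1.77 to 1.97), above the ranges of both shorter maxima. Fragments of 30 to 33 nt gave 1.05 (1.04 to 1.06) and fragments of 41 to 43 nt gave 1.06 (1.04 to 1.07), where 1 means no preference. By single nt the ratio was highest among members at 37 nt (1.72) and lowest at 32 nt (1.00). The chromosome ranges of the maxima and of the troughs did not overlap. The repeat in sizes enters this rise and fall, so it is no separate evidence for the size maxima. Exact coincidence of a member's end with a single-end tag was 2.42 times as frequent as 4 to 6 nt away (2.32 to 2.46), against 3.38 times (3.20 to 3.47) in the longer class. The single-end library was selected for 40 to 90 nt, a range that holds the longer class. Members of 26 to 39 nt (721543 fragments) lie below it, so that selection enters each comparison of the classes here.

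**Figure D2:**
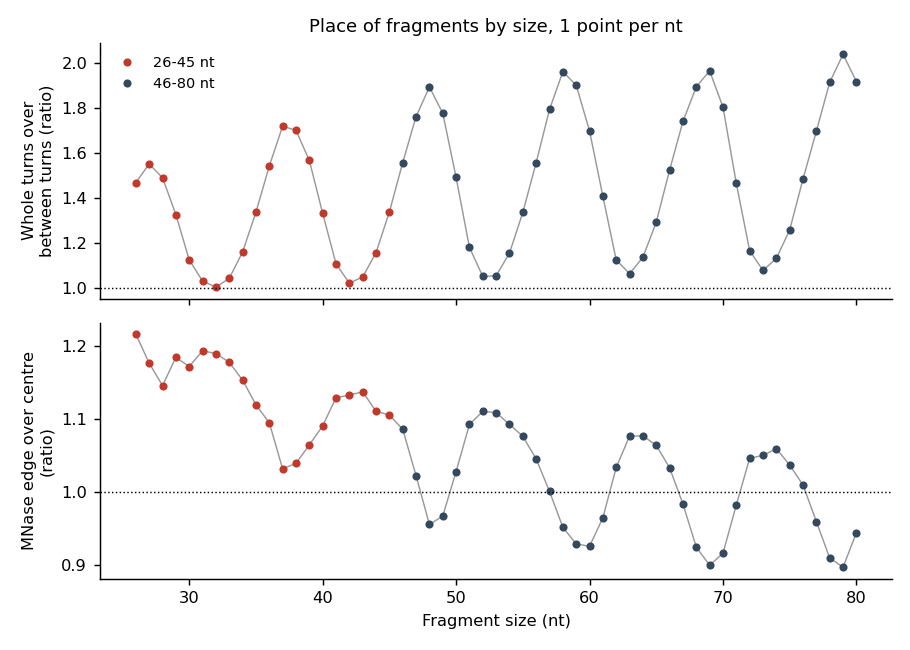
Each point is 1 fragment size (x axis, nt), with members in red and sizes of 46 to 80 nt in dark blue. The upper panel shows the ratio of single-end 5′ ends at whole helical turns over positions between turns, 1.72 at 37 nt and 1.00 at 32 nt. The lower panel shows midpoint density at the edge over the centre of MNase core DNA, 1.04 at 38 nt and 1.13 at 42 nt. Dotted lines mark a ratio of 1.

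Taken as whole classes, around MNase ends the members lay toward the edge of the core and the longer fragments toward its middle. Midpoint density was taken for each distinct MNase position and strand, relative to its mean 500 to 1000 nt away. At 11 to 30 nt inside the MNase end it was 1.28 (1.25 to 1.32) for members, against 1.11 (1.09 to 1.13) for 60 to 80 nt fragments. In the middle of the core, 65 to 84 nt inside, it was 1.16 (1.14 to 1.18) for members, against 1.17 (1.14 to 1.20) for the longer class. The ratio of edge to centre was 1.10 (1.09 to 1.11) in members, against 0.950 (0.945 to 0.957) in the longer class. It was higher for members in 6 of 6 chromosomes. Single sizes of the longer class varied, with 1.08 at 64 nt and 0.899 at 69 nt. The running mean of the members was highest 13 nt inside the MNase end (1.33) and had a lower crest 129 nt inside (1.21), close to the far edge. The longer class was highest at 76 nt (1.19). A fragment of 60 to 80 nt with its midpoint 11 to 30 nt inside must reach past the MNase end, so fragment length enters this comparison.

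**Figure D3:**
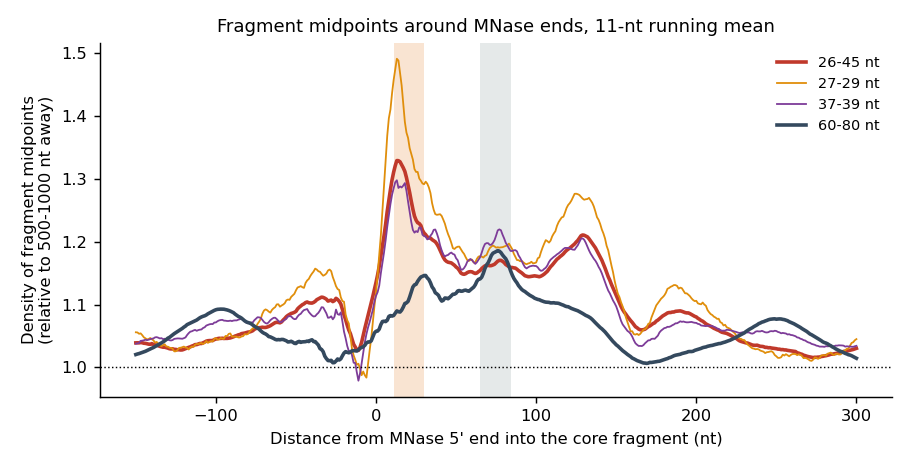
Midpoint density (y axis, relative to the mean 500 to 1000 nt away) against distance into the core from an MNase 5′ end (x axis, nt), as an 11-nt running mean. The members (red) crest at 13 nt with 1.33, and the 60 to 80 nt fragments (dark blue) crest at 76 nt with 1.19. Thin lines are fragments of 27 to 29 nt and of 37 to 39 nt, and shaded bands mark the edge (11 to 30 nt) and the centre (65 to 84 nt).

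Ends gave the same order without using midpoints. The density of members whose own 5′ end lay within 8 nt of an MNase end and which extended into the core was 1.31 (1.28 to 1.35), against 1.15 (1.12 to 1.17) for the longer class. For fragments abutting the MNase end from outside it was 1.05 (1.03 to 1.07) for members, against 1.01 (0.996 to 1.02). At the MNase end itself the members' density dropped to 1.07, with 1.31 at 1 nt outside and 1.27 at 1 nt inside. The highest values near it were 1.43 at 4 nt outside and 1.48 at 4 nt inside. The longer class had the same dip, with 0.920 at the MNase end, 1.05 at 1 nt outside and 1.18 at 1 nt inside. Its highest value nearby was also at 4 nt inside (1.35). Endo-cleaved ends of both classes at exactly the MNase position were thus less dense than ends 1 nt to either side.

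Within the class the shortest fragments leaned most toward the edge, with a ripple that followed the size maxima. The ratio of edge to centre was 1.17 (1.16 to 1.18) for 27 to 29 nt, 1.18 (1.15 to 1.22) for 30 to 33 nt, 1.04 (1.03 to 1.05) for 37 to 39 nt and 1.13 (1.12 to 1.15) for 41 to 43 nt. Fragments of 37 to 39 nt had the lowest ratio of these groups, from an edge density of 1.25 (1.23 to 1.28) and a centre density of 1.20 (1.17 to 1.23). For 27 to 29 nt the edge density was 1.39 (1.37 to 1.43) and the centre density 1.19 (1.18 to 1.21). The ripple continued in longer sizes, with 0.955 at 48 nt, 1.11 at 52 nt, 1.08 at 64 nt, 0.899 at 69 nt and 1.06 at 74 nt. Sizes of 52, 64 and 74 nt thus leaned toward the edge more than 37 to 39 nt fragments did. The lean was therefore not particular to the members.

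The lean toward the edge grew with the number of MNase tags on a position, a split chosen after its values were seen. At the 6038035 positions with 1 tag the members' ratio of edge to centre was 1.09 (1.08 to 1.09), against 0.957 (0.950 to 0.964) for 60 to 80 nt fragments. At 657582 positions with 2 tags it was 1.14 (1.12 to 1.17), against 0.912 (0.904 to 0.920). At 143909 positions with 3 to 4 tags it was 1.24 (1.21 to 1.27), against 0.862 (0.845 to 0.874). Up to this point the ratio of the members grew while that of the longer class shrank. At 12236 positions with 5 to 9 tags it was 2.07 (1.41 to 3.58), against 0.877 (0.751 to 1.09). Only 538 positions, in 231 windows of 1 kb, had 10 tags or more, and there the ratio was 31.7 (3.80 to 166.2) for members, against 3.98 (2.39 to 6.75). In this last group the longer class also lay toward the edge. Leaving out all positions with 5 tags or more gave a members' ratio of 1.09, so the genome-wide value did not rest on them.

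Around the midpoints of 140 to 150 nt endo-cleaved fragments, cut by the same nuclease, the members were again denser outside the middle. Their density within 73 nt of such a midpoint was 1.20 (1.11 to 1.46), against 1.12 (1.07 to 1.22) for 60 to 80 nt fragments. Without the 13 windows of 1 kb over 5 times the median, it was 1.13 for members and 1.09 for the longer class. The ratio of the outer zone (40 to 65 nt away) to the inner zone (within 15 nt) was 1.06 (1.04 to 1.10) in members, against 0.954 (0.941 to 0.980), and it was higher for members in 6 of 6 chromosomes. Fragment length enters this comparison as well. Starts of both classes were densest near the ends of the 140 to 150 nt fragments, which places midpoints by length. Midpoints of the longer class crested at 36 nt (1.20), between the zones, so the ratio does not separate place from length. Of the members 97.8% lay within 73 nt of some 140 to 150 nt midpoint, against 97.4% of the longer class, so at this depth that share hardly separated the classes.

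Midpoints of both size maxima lay on this lattice in opposite phase. Their starts fell on the same positions, so the difference in length alone shifts the midpoints. Fragments of 37 to 39 nt had midpoint crests at 0, 11, 21, 31, 41 and 53 nt from the core midpoint, with 1.35 at 0 nt and 1.45 at 53 nt, and a trough of 1.05 at 5 nt. Fragments of 27 to 29 nt had a trough at 0 nt (1.17) and crests at 5, 15, 26, 37, 47 and 58 nt, with 1.56 at 58 nt. Their 5′ ends fell on the same positions. Starts of 27 to 29 nt fragments crested 71, 60, 50, 39, 29, 18 and 8 nt before the core midpoint, and so did starts of 37 to 39 nt fragments. For both sizes the start 71 nt before the midpoint was the highest (1.57 for 27 to 29 nt and 1.46 for 37 to 39 nt). The fragments that set these midpoints were cut by the same nuclease, and their own ends lie near this distance. Cut sites shared with them therefore enter this crest, and whether it marks an edge of a core was not tested. In 60 to 80 nt fragments the start 71 nt before the midpoint was also the highest (1.35). A fragment of either size that starts there has its midpoint at the outermost high crest, near 58 or 53 nt.

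**Figure D4:**
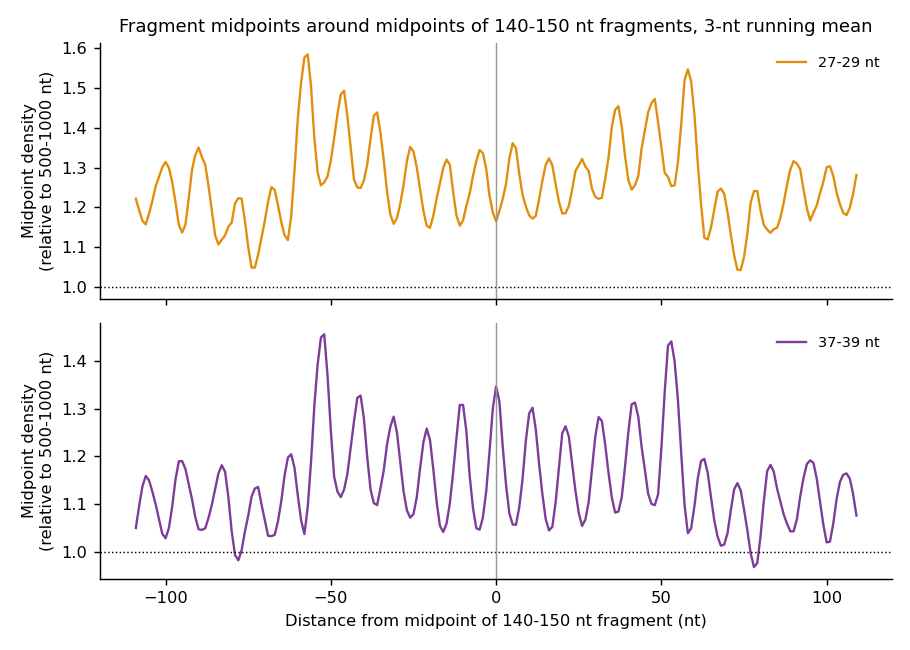
Midpoint density (y axis, relative to 500 to 1000 nt away, 3-nt running mean) against distance from midpoints of 140 to 150 nt fragments (x axis, nt), for 27 to 29 nt fragments (upper panel) and 37 to 39 nt fragments (lower panel). The shorter fragments have a trough of 1.17 at 0 nt and the longer a crest of 1.35 there, and the outermost high crests lie near 58 and 53 nt. The 13 high windows are included.

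Gaps between members recurred at a regular repeat. Over all pairs and gaps of 0 to 9 nt, the distance between the end of a member and the start of another was commonest at 5 nt (21630 pairs), with 21182 pairs at 4 nt, 21181 at 3 nt and 13197 at 1 nt. Weighted by tag count, the commonest gap was 3 nt. To the nearest start alone, the median gap was 60 nt in members, against 26 nt in 60 to 80 nt fragments, and 7.05% of members' ends had the next start 2 to 6 nt away, against 14.1%. At 7 to 11 nt the shares were 4.73% and 8.48%. The longer class holds more fragments, which shortens its nearest gaps, and gaps were not recomputed after thinning. These shares and medians therefore do not show that members lie next to each other less often. Among nearest gaps of 2 to 9 nt the commonest was 3 nt in both classes. Relative to pairs 300 to 400 nt apart the density was 1.60 at 5 nt, and it crested again at gaps of 14, 24, 35 and 45 nt. In 60 to 80 nt fragments the commonest gap of 0 to 9 nt over all pairs was 3 nt (99159 pairs, density 1.38), in each of the 6 chromosomes, and the crest at 24 nt was slightly higher (1.41). In the same range fragments of 37 to 39 nt had a commonest gap of 3 nt as well, 1.60 times the median over short gaps (1.51 to 1.76). For 27 to 29 nt fragments the commonest gap was also 3 nt, but it rested on 260 pairs and varied between 0 and 5 nt over chromosomes.

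Starts of members repeated at 9, 20, 41, 62, 72, 83 and 93 nt from each other, with paired maxima at 30 to 31 nt and at 51 to 52 nt. In 37 to 39 nt fragments the contrast of starts near 31, 41 and 52 nt over the positions between them was 1.94, against 1.56 in 60 to 80 nt fragments, and in all members it was 1.28. Starts 1 nt apart were enriched 3.40 times in members (2.48 to 4.58), against 1.76 times in the longer class (1.66 to 1.90). Without the 13 high windows, which held 0.258% of the members, the enrichment was 2.52 in members and 1.70 in the longer class. In 27 to 29 nt fragments the enrichment at 1 nt was 13.1, and 8.16 without the 13 high windows. The median distance to the next start was 52 nt in members, against 24 nt in the longer class, and 59 nt when the longer class was thinned to the members' number.

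**Figure D5:**
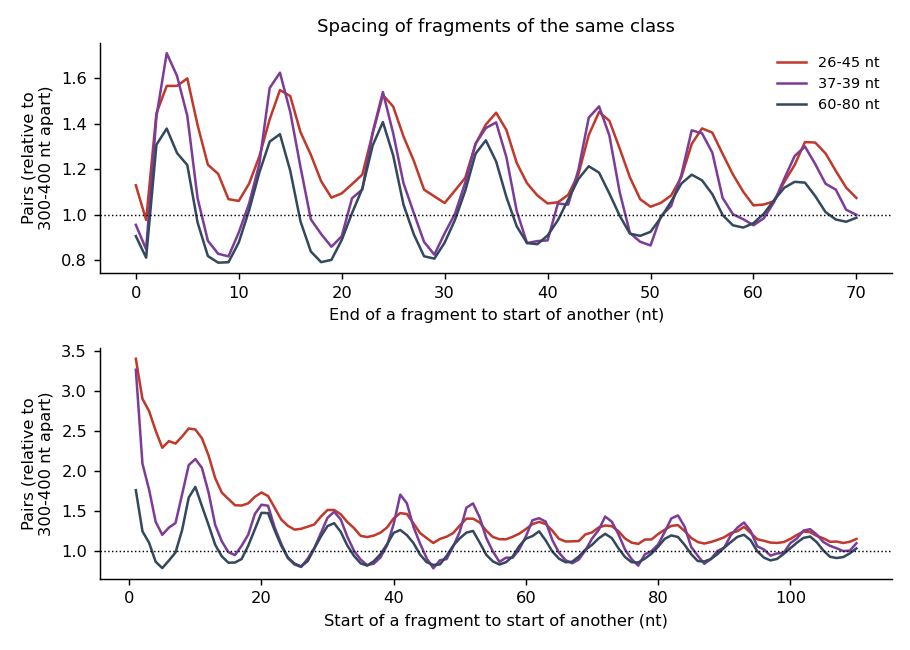
Number of fragment pairs (y axis, relative to pairs 300 to 400 nt apart) against the gap between the end of a fragment and the start of another (upper panel, nt) and against the distance between starts (lower panel, nt). Members are red, 37 to 39 nt fragments purple and 60 to 80 nt fragments dark blue. Gaps crest at 3 to 5 nt and again at 14, 24, 35 and 45 nt in the members.

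Members often shared an end with a longer fragment. A start at the same nt as the start of a 60 to 80 nt fragment was found for 6.66% of members, and a shared end for 6.67%. The mean share at 4 to 6 nt away, on either side, was 2.55% for starts and 2.56% for ends. Over all pairs, coincidence at 0 nt was 2.66 times the number at these offsets (2.36 to 2.85). The remainder of the longer fragment beyond the member was commonest at 31 nt (11652 pairs), with further maxima at 24 nt (6206) and 41 nt (6517). A remainder is a difference between the sizes of the pair, so the size maxima and the bounds of both classes enter it. What the size distributions alone would give was not computed, so these maxima do not show preferred distances between cuts.

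Across the genome the members' numbers went with those of the longer fragments. As a share of both classes they made up 29.7% of fragments, 29.2% on X (29.1 to 29.3%, 95% Wilson) and 29.8% on autosomes (29.8 to 29.9%). X did not stand apart from the autosomes, whose shares ran between 28.97% (IV) and 30.3% (II). The middle of each chromosome had a lower share than both outer parts on 5 of 6 chromosomes when each was cut into 3 equal parts, as on chromosome I with 28.7% in the middle and 31.3 and 30.4% outside. On IV the last part (28.1%) was below the middle (28.2%). In 98868 windows of 1 kb the median was 10 members and 25 longer fragments, and 758 windows (0.767%) held no member. Spearman's rho between the classes was 0.53 (0.41 to 0.58), and 0.81 in windows of 10 kb, a description over windows of 1 library that share its depth and mapping. Against MNase positions rho was 0.25 for members, and 0.17 for 60 to 80 nt fragments thinned to the same number. Against 40 to 90 nt single-end positions it was 0.52 for members, and 0.61 for the thinned longer class. That library was selected for a range that holds the longer class but not the shortest members, so selection enters this comparison.

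The share of members varied between windows a little more than counting gives. Over 15425 windows with at least 50 fragments of both classes the median share was 31.2% and the SD was 7.25 percentage points, where binomial counting alone gives 6.08. In 23 windows it was above 60%. The window with the most members was chrV:17118001-17119000, which held 989 members and 957 longer fragments, with 1071 fragments of 140 to 150 nt but only 12 MNase positions. Next came chrX:5542001-5543000 (449 members, 60 longer fragments), chrI:3171001-3172000 (304 and 21), chrV:265001-266000 (188 and 160) and the first window of the list on chromosome II, chrII:1-1000 (182 and 33). Coordinates are those of the lists, whose genome build is not named, so no gene was assigned.

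By share, chrI:3171001-3172000 was highest with 93.5% members. It was followed by chrIV:13549001-13550000 (157 members, 14 longer fragments), the X window above, chrIII:2500001-2501000 (58 and 8) and chrV:7990001-7991000 (113 and 19). The last 2 windows held no MNase position, no 140 to 150 nt fragment and no single-end position, and each count of 0 allows up to 3. The members of chrX:5542001-5543000 carried 1786 tags, and their commonest size was 30 nt, a trough size elsewhere. The lowest shares were in chrII:6043001-6044000 (3 members, 48 longer fragments), chrI:956001-957000 (4 and 48), chrIII:5169001-5170000 (4 and 47), chrI:6936001-6937000 (4 and 46) and chrII:9347001-9348000 (4 and 46). Their order describes windows picked for it and has no test.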

How the data were processed

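Lists of mapped positions of 8 oocyte libraries were deposited by the authors, 1 library per condition. Of these 5 were used. Fragments had been phosphorylated, blunted with T4 DNA polymerase, ligated to linkers, amplified and sequenced with 25 nt from each end (36 nt for single ends). Paired reads had to match perfectly at a unique position. The submitters' processing notes name Bowtie 0.12.7, while the build, and whether PCR copies were removed, are not given in the sources used here. The authors' lists give a whole-number count of tags for each fragment, not normalized, and the single-end lists also carry a display score, not used.

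Depth was 6097218 tags for 20 to 80 nt, 7963474 for 40 to 130 nt, 15331431 for 130 to 430 nt, 7892011 for MNase and 29938690 for single ends. Each distinct fragment or position was counted once. Densities were divided by their mean at 500 to 1000 nt (300 to 400 nt for pairs of one class). No low-count filter was applied, except 50 fragments per window for shares. Distances were tested on simulated fragments with known gaps and places. The members, groups and lists were chosen with earlier results of these data known. Windows named were the 5 with the most members and the 5 with the highest and the lowest share. Alternatives counted tags, left out 13 high windows, used windows of 10 kb, 145 to 149 nt fragments, a 46 to 80 nt class or X without its first 1 Mb, or thinned the longer class. Those for helical turns, MNase tag number, gaps of 27 to 29 and 37 to 39 nt fragments, distances between starts, shared ends without high windows, window share and thinning other than for rho between the classes were added after seeing the data. Sequences were not analysed here. Software was numba 0.67.0, SciPy 1.17.1, NumPy 2.4.6, pandas 2.3.3, Matplotlib 3.10.9 and Python 3.11.15.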

Additional observations from a re-analysis of the deposited data

Results flagged for a closer look

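Fragments of the members' sizes also appeared in a library selected for longer DNA. The 40 to 130 nt library held 5665 fragments of 26 to 39 nt, below its size range, with a count that was highest at the upper end and a lesser crest of 240 fragments at 28 nt. Of these, 713 had the same start and end as a fragment of the 20 to 80 nt library (12.6%, 95% Wilson interval 11.7 to 13.5%). At 26 to 33 nt the identical share was 26.0% (23.97 to 28.2%), at 34 to 39 nt it was 7.16% (6.40 to 7.995%) and at 40 to 45 nt it was 1.57% (1.42 to 1.73%). At 58 to 60 nt, where both libraries were deep, it was 4.07% (4.03 to 4.11%). What puts these fragments in both libraries was not tested.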

How the results depend on the processing

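Both size maxima and their heights over the troughs, the difference between X and autosomes, and the place of the members around MNase ends and core midpoints kept their direction under the alternatives run for each. A value was called moved when it left the range over the chromosomes, or its 95% interval for a share. Of 34 alternative values for the main results 9 moved and none turned round, and of 131 for the other results 26 moved and none turned round. Densities and their ratios turned round if they crossed 1, and the difference between X and autosomes if it changed sign. For sizes, heights over troughs, shares and their SD, rho, the commonest gap and the median distance, turning round was not defined. Weighting fragments by count gave 29.7% for autosomes, an outer over inner ratio of 1.14, a commonest gap of 3 nt at 1.90 times the median, and shared ends at 2.96 times offsets of 4 to 6 nt. A 46 to 80 nt comparison class gave 18.3% on X and 18.6% on autosomes. Windows of 10 kb gave a rho of 0.808. Counting every MNase tag gave an edge over centre ratio of 1.27 for members, and 0.947 for 60 to 80 nt fragments. No paired analysis was possible because each condition has 1 library. The lists name no genome build, the cause of each movement was not tested, and with 1 library per condition the spread between preparations is unknown.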
